A study of Caenorhabditis elegans with 2 samples.

Results

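The genes described here make, alter, activate, carry and break down fatty acids in the nematode Caenorhabditis elegans. They were chosen by gene symbol: the fat desaturases, the elo elongases, the acs acyl-CoA synthetases, the acdh acyl-CoA dehydrogenases, the cpt carnitine acyltransferases, the lbp lipid-binding proteins, fasn-1 (fatty acid synthase) and pod-2 (acetyl-CoA carboxylase). The rule found 68 members among 19973 protein-coding genes of the nuclear chromosomes. There were 22 acs genes, 13 acdh genes, 9 elo genes, 9 lbp genes, 7 fat genes, 6 cpt genes, and fasn-1 and pod-2.

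The assay was chromatin immunoprecipitation with sequencing (ChIP-seq) of the nuclear hormone receptor NHR-48, pulled down with an antibody against GFP. There was 1 group, of 2 biological replicates. It was made of whole hermaphrodites at the fourth larval stage, collected 48.5 h after they were synchronised by bleaching and starvation as first-stage larvae. The strain was OP518, genotype unc-119(tm4063) III; wgIs518, which carries a stable transgene for NHR-48 fused at its C-terminal end to a GFP-FLAG tag. It is a single line, and the labels name neither the promoter of the transgene nor the cells that make the fusion protein. Because whole animals were used, a peak cannot be given to a tissue. The group has no mutant, untreated or fed counterpart, so what follows describes positions and strengths of binding and gives no comparison between conditions. The labels name a possible control experiment, which is not analysed here.

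Fatty acid synthesis starts with acetyl-CoA carboxylase and fatty acid synthase, after which elongases add carbons and desaturases add double bonds. C. elegans makes its own polyunsaturated fatty acids, including classes that mammals must eat. Acyl-CoA synthetases activate fatty acids for storage or breakdown, carnitine acyltransferases pass them into mitochondria, acyl-CoA dehydrogenases open beta-oxidation there, and lipid-binding proteins carry them in and between cells. NHR-48 belongs with DAF-12 and NHR-8 to a small group of worm receptors related to the vertebrate vitamin D and xenobiotic receptors, and other worm nuclear receptors, NHR-49 and NHR-80 among them, are known regulators of fat and acs genes.

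The authors deposited lists of regions, each with a signal value and a summit, the base where the signal peaks. A combined list held 3361 peaks that passed a test of agreement between replicates, the irreproducible discovery rate (IDR), and 3338 of these lay on nuclear chromosomes. Their signal had a median of 155 and a lowest value of 95.4. Longer lists of regions, meant as input to that test and holding background as well as peaks, had 30000 regions for the pooled replicates, 26941 for replicate 1 and 22704 for replicate 2. Signal values are the authors' own, on a scale of their own in each list, so replicates are set side by side here through ranks. The number of reads behind each library was not given in the files, so the counting error of a signal is unknown.

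The sequences below show the ground on which the strongest and the most telling of these peaks stand. Each is the 100 bases centred on an IDR summit, read 5′ to 3′ from the RefSeq WBcel235 genome (ce11 coordinates) on the strand of the gene named. Capitals mark matches, on either strand, to 6 short motifs: TGATAA (the kind of site that GATA factors bind), GAGAGA (a simple repeat), CACGTG (an E-box), and the nuclear-receptor type hexamers AGTGCA (found in DAF-12 sites), AGGTCA (the classical receptor core) and AGTTCA (a variant of it). fat-2, fat-1, acs-6 and the pair fat-4 and fat-3 are shown because they held the strongest peaks in the wider window, acs-2 because it is a well-known fasting and NHR-49 target, fat-6 and lbp-3 as weaker peaks close to a start, and acdh-10 as the only peak of its family.
fat-2, chrIV:13322574-13322673, plus strand: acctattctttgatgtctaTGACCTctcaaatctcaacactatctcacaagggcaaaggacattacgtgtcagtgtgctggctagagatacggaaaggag
fat-1, chrIV:13314304-13314403, plus strand: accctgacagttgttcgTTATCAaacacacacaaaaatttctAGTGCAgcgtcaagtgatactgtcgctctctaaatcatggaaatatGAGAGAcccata
acs-6, chrII:7060375-7060474, plus strand: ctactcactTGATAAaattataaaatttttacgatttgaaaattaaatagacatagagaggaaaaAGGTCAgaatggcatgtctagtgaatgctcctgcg
fat-4 and fat-3 (shared peak), chrIV:9801581-9801680, plus strand: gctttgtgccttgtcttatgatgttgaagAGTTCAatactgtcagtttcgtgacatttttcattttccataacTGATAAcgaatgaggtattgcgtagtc
acs-2, chrV:15566638-15566737, plus strand: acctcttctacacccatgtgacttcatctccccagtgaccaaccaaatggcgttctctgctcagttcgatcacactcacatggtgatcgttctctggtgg
fat-6, chrIV:11914852-11914951, minus strand: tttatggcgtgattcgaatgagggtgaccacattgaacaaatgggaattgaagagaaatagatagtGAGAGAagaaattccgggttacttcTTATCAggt
lbp-3, chrX:3256926-3257025, plus strand: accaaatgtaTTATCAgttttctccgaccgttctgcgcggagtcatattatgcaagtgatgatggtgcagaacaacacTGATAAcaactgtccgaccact
acdh-10, chrX:17216336-17216435, minus strand: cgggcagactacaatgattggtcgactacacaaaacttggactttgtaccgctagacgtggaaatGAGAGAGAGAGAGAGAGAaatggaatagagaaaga

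NHR-48 peaks stood near fatty acid genes at a higher share than near other genes, and the gap between the shares was larger in a wider window. A gene was counted when an IDR summit fell in a window around any annotated 5′ end of its protein-coding transcripts. In the narrower window, 1000 bp upstream to 200 bp downstream, 12 of 68 members held a summit, or 17.6% (exact 95% Clopper-Pearson interval 9.46 to 28.8%), against 8.97% of the other genes and 9% of all protein-coding genes. In the wider window, 2000 bp upstream to 500 bp downstream, 24 of 68 members held one, or 35.3% (24.1 to 47.8%), against 12.2% of the other genes and 12.3% of all genes. The members' share was 1.97 times that of the other genes in the narrower window and 2.89 times in the wider one. No test was run on these shares, and the members were chosen with earlier results of these data known. The intervals treat genes as independent draws, which clustered and neighbouring genes are not. Members without an IDR summit may still be bound, since the list holds only regions past the authors' threshold.

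The families differed in how many members held a peak. The fat desaturases held summits at 3 of 7 genes in the narrower window and at 5 of 7 in the wider one. The elongases held them at 2 of 9 and 3 of 9, the carnitine acyltransferases at 2 of 6 in both windows, and the lipid-binding proteins at 2 of 9 and 3 of 9. The acyl-CoA synthetases moved most between the windows, with 3 of 22 in the narrower and 10 of 22 (45.5%, 24.4 to 67.8%) in the wider. At the low end, 0 of 13 acyl-CoA dehydrogenases held a summit in the narrower window, with an upper limit of 24.7%, and 1 of 13 did in the wider one. Neither fasn-1 nor pod-2 held a summit in either window. The shares over all genes were 9% in the narrower window and 12.3% in the wider one. In both windows, these lie within the intervals of the elongases, carnitine acyltransferases and lipid-binding proteins. The 9% also lies within the interval of the acyl-CoA synthetases in the narrower window (13.6%, 2.91 to 34.9%). The small numbers leave the intervals of the families wide and overlapping, and the families were not tested against each other.

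**Figure D1:**
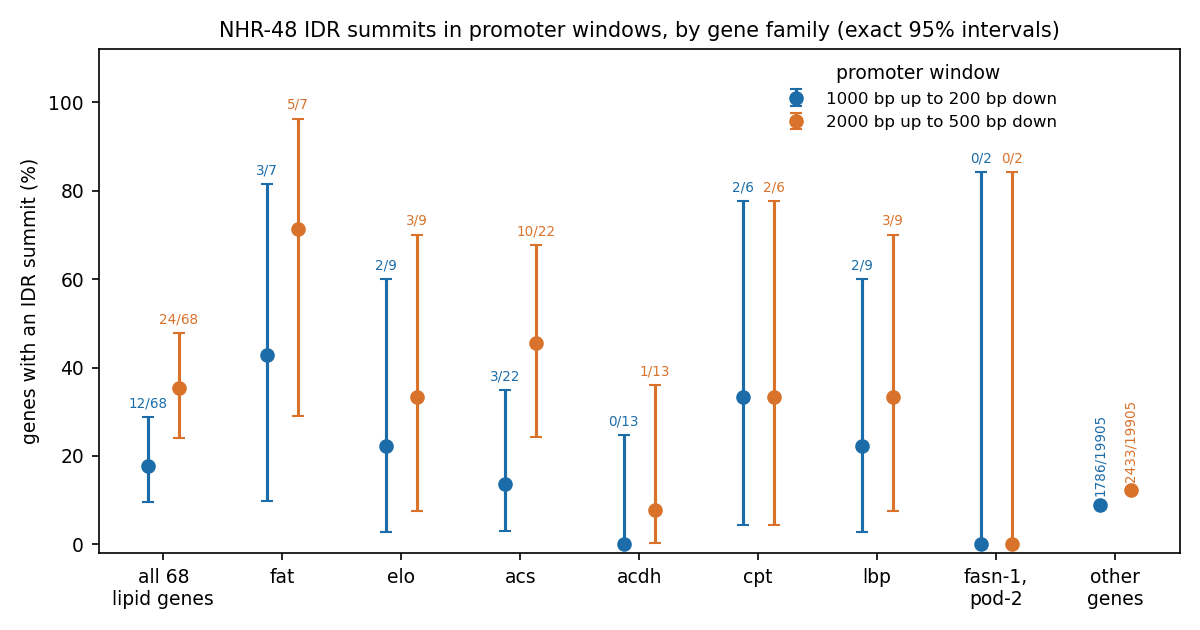
Share of genes (percent, y axis) with an IDR summit in the narrower and in the wider window. Symbol families run along the x axis, with all 68 members and the other genes. Points are shares and lines are exact 95% Clopper-Pearson intervals; the fat genes reach 5 of 7 in the wider window and the acyl-CoA dehydrogenases 1 of 13.

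The strongest peaks in the windows of the members were those of the desaturase genes fat-2 and fat-1. fat-2 makes linoleic acid from oleic acid and so opens the polyunsaturated branch. Its peak, at chrIV:13322534-13322794 with the summit 1249 bp upstream, had a signal of 469 in the combined list and ranked 243 of the pooled regions. The region under it had a signal of 275 and rank 253 in replicate 1, and 193 and rank 243 in replicate 2. Both replicates thus placed this peak near the top of their lists at almost the same rank. A weaker IDR interval with its summit 1048 bp upstream (signal 132) overlapped it and rested on the same replicate regions. Another pair of IDR summits stood farther out in the same gap between genes, at 4793 bp (signal 142) and 4994 bp (signal 454), beyond both windows. That gap is 5061 bp long and runs back to the 3′ end of fat-1, so this pair stood just past fat-1.

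fat-1, the desaturase that turns n-6 into n-3 fatty acids, had its peak at chrIV:13314290-13314470, in the intergenic sequence 1290 bp upstream. Its signal was 339 in the combined list, 185 (rank 528) in replicate 1 and 148 (rank 421) in replicate 2. fat-1 and fat-2 lie on the same strand of chromosome IV. The leading peaks of both genes lay at a like distance upstream, a little beyond the narrower window.

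fat-3 and fat-4, which act in the later desaturation steps towards arachidonic and eicosapentaenoic acids, are neighbours on chromosome IV and shared a peak at chrIV:9801393-9801868. It lay 274 bp upstream of a 5′ end of fat-4, in an intron of a longer fat-4 transcript, and 1392 bp upstream of fat-3. Its signal was 259, with 160 (rank 677) in replicate 1 and 101 (rank 840) in replicate 2. fat-3 had 2 further IDR peaks of its own, 764 bp upstream of a 5′ end and inside an intron (signal 143), and 92 bp upstream (signal 98.7). That made fat-3 the member with the most IDR peaks in its windows.

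The desaturases that make oleic and palmitoleic acids from saturated fat did not share a pattern. fat-6, a stearoyl-CoA desaturase, held a peak 231 bp upstream of a 5′ end, in a fat-6 intron at chrIV:11914664-11915139, with a signal of 134, ranking 1738 in replicate 1 and 3352 in replicate 2. fat-7, its close paralog, held no summit of even the pooled list in the wider window, and its nearest IDR summit lay 2412 bp downstream of its 5′ end. fat-5, which acts on palmitic acid, held only a weak pooled region (29.5) there, while an IDR peak (signal 213) stood 3074 bp upstream.

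Among the elongases, elo-1 had 2 peaks, each near a different annotated 5′ end. ELO-1 lengthens polyunsaturated acids between the steps of FAT-3 and FAT-4. The first, at chrIV:9525891-9526366 and 237 bp upstream of the start of the gene, had a signal of 189, with 102 (rank 1464) in replicate 1 and 92.7 (rank 974) in replicate 2. The second, in an intron and 215 bp downstream of the other 5′ end, which lies inside the gene, had a signal of 120 but was uneven between replicates, ranking 5504 in replicate 1 and 1153 in replicate 2. elo-6, which lengthens branched-chain acids, had a summit 340 bp upstream (signal 106), and elo-3 had one 1138 bp upstream (signal 125). Both of these summits lay within exons of noncoding genes. elo-5, the partner of elo-6 in the making of branched-chain acids, held a pooled region of signal 75 and no IDR summit in the wider window.

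The synthesis enzymes proper, pod-2 and fasn-1, had pooled regions in their windows that fell short of the IDR list. The strongest for pod-2 lay inside the gene, 1803 bp upstream of one of its inner 5′ ends, with a signal of 91.9 and rank 3537, just under the lowest IDR signal. The strongest in its narrower window had a signal of 45. For fasn-1 the strongest lay 832 bp upstream, with a signal of 54.3. Both enzymes therefore appeared only in the list that holds background as well as peaks.

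The acyl-CoA synthetases formed the largest group of members with peaks, and the one whose peaks stood farthest out. acs-6 led them with a peak at chrII:7060330-7060448, intergenic and 1605 bp upstream, with a signal of 332 in the combined list, 201 (rank 462) in replicate 1 and 136 (rank 492) in replicate 2. acs-2, a synthetase for mitochondrial beta-oxidation that fasting and NHR-49 are known to induce, had its peak at chrV:15566450-15566925, 706 bp upstream. Its signal was 196, with 123 (rank 1066) in replicate 1 and 69.5 (rank 1621) in replicate 2. Both genes held less signal than fat-2 and fat-1 in the combined list, while acs-6 ranked above fat-1 in replicate 1 and below it in replicate 2.

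Besides acs-2, the synthetases with a summit in the narrower window were acs-7, which takes part in making ascaroside pheromones (130 bp upstream, signal 125), and acs-12 (673 bp upstream, signal 117). The acs-12 summit lay in the 5′ UTR of the neighbouring gene amx-3, 218 bp from an amx-3 5′ end. The wider window added acs-19 (1278 bp), acs-5 (1305 bp), acs-22 (1431 bp), acs-20 (1436 bp), acs-6, acs-4 (1849 bp) and acs-11 (1926 bp), whose signals besides that of acs-6 ran between 135 and 188. acs-20 and acs-22, relatives of mammalian fatty acid transport proteins known for their part in the cuticle barrier, had their peaks at almost the same distance, although the acs-22 summit also lay in an acs-22 intron, 650 bp downstream of another 5′ end. The acs-19 summit lay 243 bp from brc-1 and the acs-11 summit 201 bp from eas-1, each in the narrower window of that neighbour, so neither peak can be given to the synthetase rather than the neighbour from its position.

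Carnitine acyltransferases had their peaks close to the start. cpt-2, the mitochondrial inner-membrane form by homology, had a peak at chrIV:11179328-11179519, 243 bp upstream, which also stood in the narrower window of C08F8.9. Its signal was 223, with 168 (rank 628) in replicate 1 and 66.1 (rank 1784) in replicate 2, one of the larger gaps in rank among the leading peaks. cpt-4 had a summit 173 bp upstream (signal 130). Farther IDR summits stood at 2668, 4336 and 4598 bp, with signals of 107, 117 and 107. The gap from cpt-4 to the next gene upstream is 1595 bp, so all of these farther summits lay beyond that gap. They cannot be given to cpt-4 from their position. cpt-1, by homology the outer-membrane form that gates mitochondrial uptake, held a pooled region of signal 81.8 in its window, and the nearest IDR peak, of signal 435, lay 2504 bp upstream, outside the wider window.

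The lipid-binding proteins had peaks of lower signal. lbp-3 had a summit 396 bp upstream at chrX:3256738-3257213 (signal 126, rank 2303 in replicate 1 and 2813 in replicate 2). lbp-5 had one 260 bp upstream with a signal of 97.2, near the bottom of the IDR list. lbp-7 had one 1128 bp upstream (signal 121), which ranked 4917 in replicate 1 and 1456 in replicate 2, so that replicate 1 alone would not have placed it among its best 3361 regions. lbp-8, which carries lipid signals from lysosome to nucleus, held no IDR summit in its windows, and its nearest lay 1840 bp downstream of its 5′ end.

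The acyl-CoA dehydrogenases held an IDR summit at 0 of 13 genes in the narrower window and at 1 of 13 (7.69%, 0.195 to 36.0%) in the wider one. The shares over all genes, 9% and 12.3%, lie within the intervals of these counts, so they do not set the family apart from the background. The single peak in a wider window, that of acdh-10 (signal 98.5, 1483 bp upstream), lay in an intron of acdh-7, 719 bp downstream of the acdh-7 5′ end and outside the windows of acdh-7. It ranked 3297 in replicate 1 and 2624 in replicate 2. acdh-1, the dehydrogenase that opens the propionate shunt, came closest among the rest, with a pooled region 722 bp upstream of signal 84.6, ranking 3911 in replicate 1 and 4730 in replicate 2. Weak regions were not scarce in the family: 9 of 13 acdh genes held a pooled summit in the narrower window. That is 69.2% of the family (38.6 to 90.9%), beside 66.2% of all members and 39.5% of all protein-coding genes. The interval holds the share over all genes. The family's IDR count in the same window was 0. The difference between the families was not tested.

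**Figure D2:**
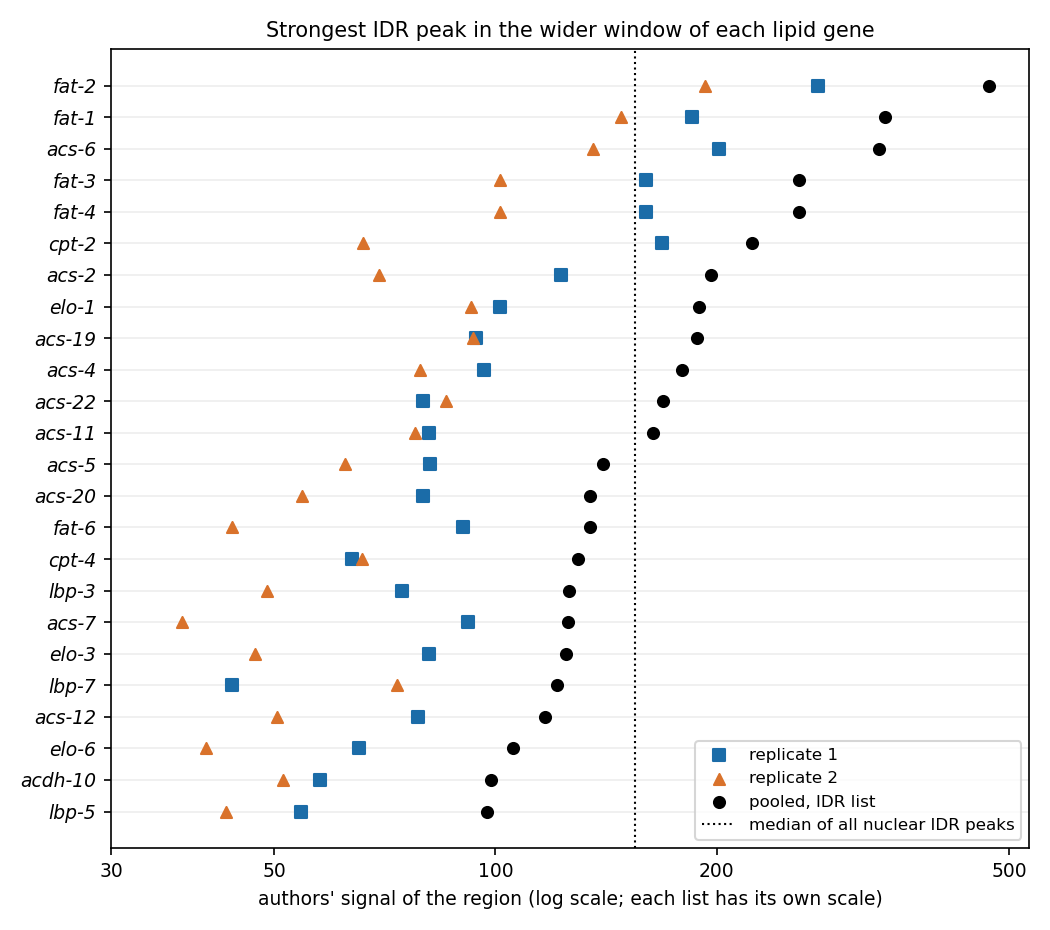
Signal of the strongest IDR peak in the wider window of the 24 members that held one, with the signal of the region under it in each replicate list. Each list has a signal scale of its own; fat-2 (469), fat-1 (339) and acs-6 (332) lead, and lbp-5 (97.2) is lowest.

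In the wider window the members' peaks stood farther out than those of other genes, and they were not stronger. In the wider window, the summit of the strongest peak stood at a median of 1133 bp upstream for the 24 members, against 420 bp for the 2433 other genes with a summit there. Signal did not run higher at the members, with a median of 152 for their strongest peak against 160 for the other genes. In the narrower window the median distances were close, 267 bp at the members against 261 bp at the other genes, and the median signals were 132 and 158. The highest signal in the wider window was 469 over the 24 members and 2955 over the 2433 other genes. Sets of such unlike size do not allow a comparison of maxima.

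The stretch beyond the narrower window added a larger share of members than of other genes. Of the 56 members without a summit in the narrower window, 12 held one in the wider window, or 21.4% (11.6 to 34.4%), against 3.57% of the other genes without one and 3.63% of all such genes. When the upstream reach was lengthened step by step, the members' share was 8.82% at 250 bp, 14.7% at 500 bp, 17.6% at 750 and at 1000 bp and 30.9% at 1500 bp, and it came to 35.3% at 2000 bp and 50% at 5000 bp. The other genes' share grew more slowly, with 4.50% at 250 bp, 6.77% at 500 bp, 8.97% at 1000 bp, 10.6% at 1500 bp, 12% at 2000 bp and 18.6% at 5000 bp. The members' line thus stood above that of the other genes at every reach tried and pulled away beyond 1000 bp.

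**Figure D3:**
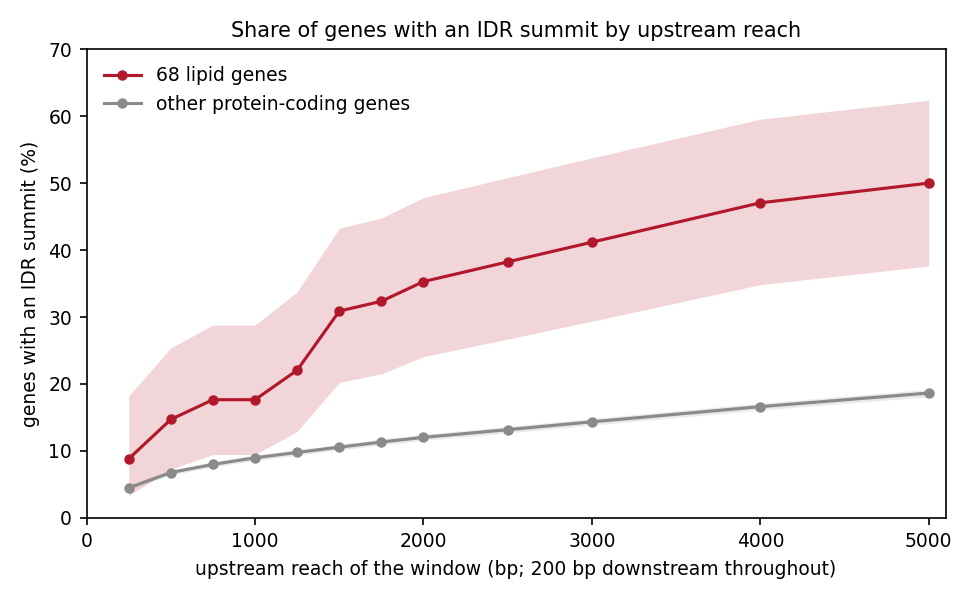
Share of genes (percent, y axis) with an IDR summit between the given reach upstream of a 5′ end (bp, x axis) and 200 bp downstream of it, for the 68 members and for the other genes, with shaded exact 95% Clopper-Pearson intervals. The members' share is 17.6% at 1000 bp and 35.3% at 2000 bp, against 8.97% and 12% of the other genes.

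The members nearest the edges show how the window decided the count. Just inside the narrower window were fat-3 at 764 bp and acs-2 at 706 bp, and just outside it fat-2 at 1048 bp, lbp-7 at 1128 bp and elo-3 at 1138 bp. Just inside the wider window were acs-11 at 1926 bp and acs-4 at 1849 bp, and just outside it acs-13 at 2075 bp, measured from a 5′ end inside that gene (signal 529), lbp-1 at 2166 bp, whose peak is that of lbp-3, and cpt-1 at 2504 bp. No member had a summit between 800 and 1000 bp upstream, so small moves of the narrower edge inward would not change its count.

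**Figure D4:**
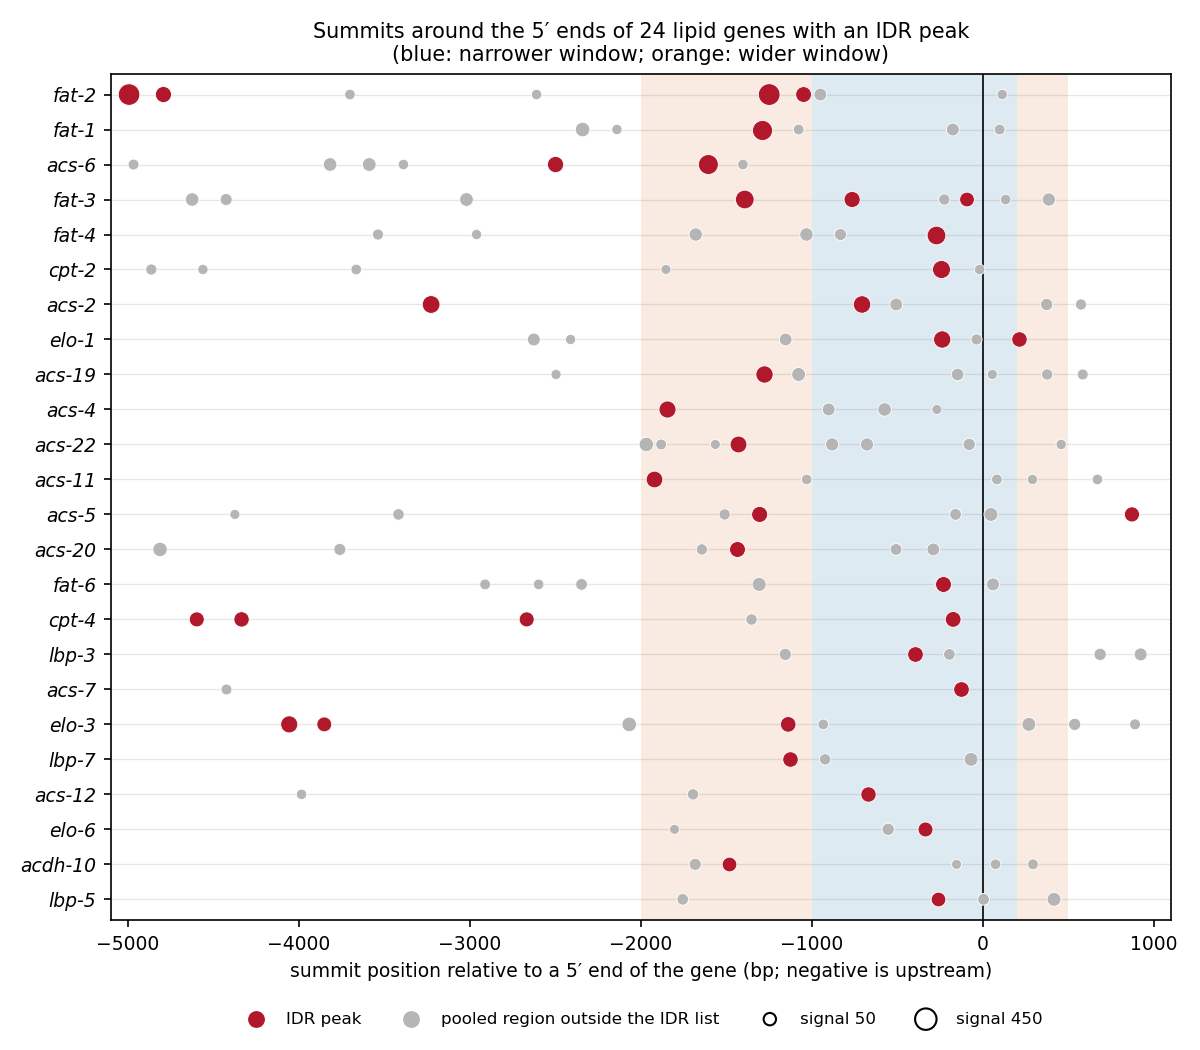
Summits from 5000 bp upstream to 1000 bp downstream (x axis, bp) of a 5′ end of each of the 24 members with an IDR peak (rows, by signal). Red points are IDR peaks, grey points are pooled regions outside the IDR list, and shading marks the windows. Point area follows the square root of the signal. The leading peaks of fat-2, fat-1 and acs-6 lie between 1249 and 1605 bp upstream.

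Members also had longer upstream gaps than other genes. The median gap to the next gene upstream was 1558 bp for members, against 936 bp for other genes, and 38.2% of members had a gap of at least 2000 bp, against 31.5% of other genes. Among genes with such a gap, 10 of 26 members held a summit in the wider window, or 38.5% (20.2 to 59.4%), against 12.2% of the other genes and 12.3% of all. In the narrower window 3 of 26 did, or 11.5%, against 8.10% of the other genes and 8.11% of all. Among genes with this much room upstream, the members' share was 3.15 times that of the other genes in the wider window and 1.43 times in the narrower one. Of the 12 members with a summit only beyond the narrower window, 2 had it in the narrower window of another gene (16.7%). Among the other genes of that kind it was 273 of 647 (42.2%). With only 12 members the share of 16.7% is loosely known, no interval is given for it, and the difference was not tested.

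Chromosome IV weighed heavily. It holds 15 of the 68 members, among them fat-1, fat-2, fat-3, fat-4, fat-6, elo-1, elo-3, elo-6, cpt-2 and acs-20, and 10 of these 15 held a summit in the wider window and 6 in the narrower one. Over all genes of the chromosome the shares were 11.7% and 8.08%. Outside it, 14 of 53 members held a summit in the wider window and 6 of 53 in the narrower one. Without the chromosome, the members' share was 2.13 times that of the other genes in the wider window and 1.23 times in the narrower one.

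In the list that holds background as well, most members had a region. A pooled summit lay in the narrower window of 45 of 68 members, or 66.2% (53.7 to 77.2%), against 39.4% of the other genes and 39.5% of all. In the wider window it was 49 of 68, or 72.1% (59.9 to 82.3%), against 50.4% of the other genes and 50.5% of all. Of the members with a pooled summit in the narrower window, 26.7% had an IDR summit there, against 22.8% of the other genes. In the wider window it was 49% against 24.2%. The 19 members without any pooled summit in the wider window included fat-7.

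The 24 members held 27 distinct IDR peaks. Each was overlapped by a region in both replicate lists, which the IDR list selects for and which is no separate support. Of the 27, 20 were overlapped by one of the best 3361 regions of both replicates, while the share over all nuclear IDR peaks was 79.3%. The commonest width, 476 bp, was that of 23 peaks, and of 79.5% of all nuclear IDR peaks. None had its summit within 500 bp of a tRNA gene, while 7.40% of all nuclear IDR peaks did. By annotation, 18 summits were intergenic, 6 lay in introns, 2 in noncoding exons and 1 in a 5′ UTR. No shares over all peaks are given for these classes, so they only describe the members' peaks.

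Among the motifs spelled out with the sequences, TGATAA was the most frequent in the members' peaks. It was present in 12 of the 27 windows of 100 bp, or 44.4% (25.5 to 64.7%), against 20.3% of the windows of all 3338 nuclear IDR peaks. It occurred in the windows of fat-1, acs-6, the peak shared by fat-4 and fat-3, elo-1, elo-3, fat-6, acs-5, acs-7, acs-20, cpt-4, lbp-3 and lbp-7, and lbp-3 and acs-7 held it 2 times. The members' windows were poorer in G and C, with a median of 40% against 44% over all, and among windows at or below 40% the shares were 8 of 14 (57.1%) for members and 35.8% for all peaks. Whether the base composition accounts for the difference was not tested.

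The other motifs were rarer, and their shares differed from those over all peaks by fewer percentage points. GAGAGA was present in 5 of 27 windows (18.5%, against 21.9% of all), CACGTG in 1 (3.70% against 7.91%), AGTGCA in 2 (7.41% against 6.14%), AGGTCA in 2 (7.41% against 3.45%) and AGTTCA in 3 (11.1% against 5.27%). As ratios to all peaks, AGGTCA and AGTTCA stood about as high as TGATAA, on only 2 and 3 windows. AGGTCA stood in the windows of fat-2 and acs-6, both among the leading peaks. acs-2 held none of the 6. A match says only that the letters are there.

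Other genes of lipid metabolism were also near peaks. Of 117 such genes, listed by role, 37 held an IDR summit in the narrower window (31.6%, 23.3 to 40.9%) and 47 in the wider one (40.2%), where all protein-coding genes stood at 9% and 12.3%. In the narrower window their share was above the members' 17.6%, and in the wider window the 2 were closer. The 2 lists were not tested against each other. Both were chosen with earlier results of these data known, so these shares are no independent support.

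The regulators of fat metabolism held summits at 10 of 20 genes in the narrower window. nhr-68, a receptor of the propionate response, had by far the strongest peak of any lipid gene listed (signal 2512), which also lay in the narrower window of H12C20.7. nhr-49 (294) and nhr-66 (295), receptors that act on lipid genes, followed at a distance, with mxl-3 (313) and hlh-30 (189), opposing regulators of lysosomal lipases. klf-1, nhr-114, pha-4, mml-1 and daf-16 made up the rest, with signals between 104 for daf-16 and 158 for klf-1.

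A list of mitochondrial oxidation enzymes, which also holds enzymes of branched-chain amino acid and propionate breakdown, reached 10 of 17 in the narrower window. Those were hach-1 (210), ech-1.2 (168), alh-8 (160), hphd-1 (134), kat-1 (126), ivd-1 (123), bcat-1 (122), hacd-1 (110), ech-6 (105) and ech-5 (103). The peaks of hach-1, kat-1 and ech-5 also lay in the narrower windows of the neighbours nmad-1, kars-1 and F56B3.11. hach-1, hphd-1 and alh-8 act in the propionate shunt that acdh-1 opens. These counts stood beside 0 of 13 for the genes with the acdh symbol in the same window, with an upper limit of 24.7%. The share over all genes there was 9%. The oxidation list was not tested against the acdh genes.

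Triacylglycerol and phospholipid genes reached 9 of 24 in the narrower window, led by the diacylglycerol acyltransferase dgat-2 (420). The others were acl-1 (159), lpin-1 (151), pmt-2 (144), cept-1 (143), acl-6 (134), mboa-2 (105), acl-2 (102) and sams-1 (98.2). The dgat-2 and acl-6 peaks also lay in the narrower windows of fbxa-108 and F08F3.8. Peroxisomal genes reached 3 of 18, with dhs-28 (218), pmp-5 (147) and pmp-2 (132). Lipases reached 2 of 13, with atgl-1 (102), the main fat-droplet lipase, and lipl-5 (101). The intervals of the lipase share (15.4%, 1.92 to 45.4%) and of the peroxisomal share (16.7%, 3.58 to 41.4%) hold the 9% of all genes. In the wider window atgl-1 held a stronger peak (522), and lipl-2 (446) and lipl-7 (118) were added. The lipl-2 and lipl-7 peaks lay in the narrower windows of ztf-7 and tkt-1. In the list of malonyl-CoA and citrate supply, 2 of 7 genes held a summit in the narrower window, mlcd-1 (124) and mce-1 (96.5). The interval of this share (28.6%, 3.67 to 71.0%) also holds the 9% of all genes. Their peaks lay in the narrower windows of idhg-1 and ndub-7 as well. The wider window added acly-1 with a signal of 713. Among fatty acid and retinol binding proteins, 1 of 14 held one, acbp-6 (130), or 7.14%, below the share over all genes, and the wider window added far-6 (201) and acbp-3 (161). None of 4 genes listed beside the elongation cycle held an IDR summit in either window, with an upper limit of 60.2%. All 4 held a pooled summit in the narrower window.

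Large enzyme families outside lipid metabolism gave another yardstick. The ugt glucuronosyltransferases held a summit at 12 of 67 genes in the narrower window and 14 of 67 in the wider one, the gst glutathione transferases at 7 of 44 and 10 of 44, and the cyp cytochromes at 6 of 74 and 8 of 74. The cyp shares, 8.11% and 10.8%, were slightly under those of all genes, 9% and 12.3%, and the ugt shares were 17.9% and 20.9%. Of the genes without a summit in the narrower window, the wider one added 2 of 55 ugt, 3 of 37 gst and 2 of 68 cyp genes, beside 12 of 56 members. These families were not tested against the members.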

How the data were processed

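ChIP-seq of NHR-48 with GFP was analysed from the peak lists of 2 biological replicates of 1 group. Per the deposited file listings, the lists on ce11 are a combined IDR list and the pooled and single-replicate regions given to the IDR step. The authors deposited for each region a signal value, a −log10 q-value and the offset of the summit; the signal ranked regions, the −log10 q-value was read and not used for results. The peak caller, its settings and the aligner are not given in the sources used here, and the read depth is not known, so signals carry no counting error. Lists on ce10 were not used.

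A region was assigned by its summit to windows around 5′ ends of protein-coding transcripts (Ensembl release 115, WBcel235). Regions on the mitochondrial genome were left out. Replicate regions were matched by an overlap of at least 1 bp. Shares have exact 95% Clopper-Pearson intervals; no test was run, since there is 1 group. The members and the lists of other lipid genes (118 symbols, 117 matched) were chosen with earlier results of these data known. Members with an IDR summit in either window are named, with the strongest pooled region of each family without one, those at the window edges, and listed lipid genes with a summit in the narrower window; fat-7, lbp-8, summits beyond the windows and listed lipid genes with a summit only in the wider window were named after their values were seen. Windows and intervals were computed in Python 3.11.15 with pandas 2.3.3 and scipy 1.17.1, and the assignment was tested on simulated regions. Figures were drawn with matplotlib 3.10.9. Alternatives are given in the closing section.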

Additional observations from a re-analysis of the deposited data

How the results depend on the processing

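The members' share stayed above that of the other genes under every alternative run. The ratio of shares ran from 1.23 to 2.43 in the narrower window and from 2.13 to 3.43 in the wider one, lowest in both when chromosome IV was left out, an alternative chosen after seeing the data. The count changed most when only IDR peaks of at least the median signal were kept: it was then 4 members in the narrower window and 12 in the wider one, with ratios of 1.27 and 2.76, since fewer peaks were used. The other alternatives gave 8 to 15 and 20 to 27 members. Ranking a single replicate's regions in place of the IDR list gave 12 members either way in the narrower window and 23 to 24 in the wider one. The ratios were 1.96 to 2.04 and 2.83 to 2.89. The genes were not all the same. Without replicate 1, 9 of the 12 and 21 of the 24 were shared with the IDR list. Without replicate 2, 11 of the 12 and all 23 were shared. Pooled regions gave 38 to 47 and 45 to 52 members, and with a single replicate 41 to 47 and 49 either way. Of those 49, 47 were shared with the pooled list either way. No paired analysis was possible because the study has 1 group. Read depth is unknown, so it cannot be said how weak a peak the lists could hold.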

Other observations

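IDR summits inside gene bodies count only where a 5′ end is near. Of the 68 members, 10 held a summit in the gene body (14.7%), against 833 of all 19973 genes (4.17%). The strongest was in acs-13, an acyl-CoA synthetase gene that held no IDR summit in its wider window, with a signal of 529, above that of fat-2. Its summit lay 2075 bp upstream of a 5′ end inside the gene, a little beyond the upstream edge of the wider window. The others were acdh-7 (98.5), acs-5 (110), elo-1 (120), fat-6 (134), cpt-4 (136), fat-3 (143), acs-20 (147), acs-22 (169) and fat-4 (259), some of them the peaks described above. These genes were named after their values were seen, and no test was run.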
